A study of Mus musculus with 18 samples.

Results

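The genes with which a T cell copies its DNA and divides were followed as 46 named genes among the 45706 genes listed for each library. The 46 were chosen by symbol, and each matched 1 Ensembl identifier. They are 16 genes of S phase (*Mcm2*, *Mcm3*, *Mcm4*, *Mcm5*, *Mcm6*, *Mcm7*, *Pcna*, *Rrm1*, *Rrm2*, *Tyms*, *Cdc6*, *Cdt1*, *Gins2*, *Ccne1*, *Ccne2* and *E2f1*), 20 genes of mitosis (*Mki67*, *Top2a*, *Ccna2*, *Ccnb1*, *Ccnb2*, *Cdk1*, *Cdc20*, *Plk1*, *Aurka*, *Aurkb*, *Bub1*, *Bub1b*, *Birc5*, *Cenpe*, *Cenpf*, *Kif11*, *Kif20a*, *Tpx2*, *Ube2c* and *Foxm1*), 5 D cyclins and partner kinases (*Ccnd1*, *Ccnd2*, *Ccnd3*, *Cdk4* and *Cdk6*) and 5 inhibitors of cyclin dependent kinases (*Cdkn1a*, *Cdkn1b*, *Cdkn2a*, *Cdkn2c* and *Cdkn2d*).

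RNA-seq was performed on CD8+ T cells purified from the spleens of OT-I mice, which carry a transgenic receptor for an ovalbumin peptide, and all cultures held IL-7 and IL-15. Single peptide stimulated cells met the peptide at the start of the culture and were then rested without it, whereas repeat peptide stimulated cells received it daily and were kept in it until harvest. From day 5 to day 8 both were treated with the solvent DMSO or with 1 µM ibrutinib, an irreversible inhibitor of the kinase BTK, and live cells were lysed on day 8. There were 5 libraries of single peptide cells with DMSO, 4 of single peptide cells with ibrutinib, 4 of repeat peptide cells with DMSO and 5 of repeat peptide cells with ibrutinib. The strain entry of every library reads wild type. The genotype entry differs between libraries and was taken to name the experiment, because the study describes its RNA-seq without btk deficient cells. Experiments were lettered A to F. The genotype entry names a btk knockout for every library of B, C, D and E, and for none of A and F. A, B, C and D each gave a library of all 4 groups, while E and F gave 1 library each, of repeat peptide cells with ibrutinib (E) and of single peptide cells with DMSO (F). The sources do not tie libraries to animals, so the tests measure the spread between these libraries.

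As background, a T cell leaves rest when D cyclins with the kinases CDK4 and CDK6, and then cyclin E with its kinase, phosphorylate the retinoblastoma protein and release E2F factors, which switch on the genes of DNA replication. Cyclins A and B with CDK1 then carry the cell through mitosis, and the genes for this step are held down in resting cells by the DREAM complex, which contacts a promoter element called the cell cycle homology region (CHR). *Cdkn1a* (p21) and *Cdkn1b* (p27) encode inhibitors that bind cyclin and kinase together, whereas the INK4 inhibitors of *Cdkn2a*, *Cdkn2c* and *Cdkn2d* bind CDK4 and CDK6. CD8+ T cells are known for dividing fast after antigen and for returning to rest when it is gone.

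The bases near the start sites of these genes were searched for the elements named above. RefSeq promoters of GRCm38.p6, which span 250 bases before to 50 after a start, were found for 36 of the 46 genes. *Mcm4*, *Gins2*, *Ccne2*, *Ccna2*, *Aurkb*, *Kif20a*, *Tpx2*, *Foxm1*, *Ccnd1* and *Ccnd2* were not matched. Each window was searched on both strands for the E2F octamers TTTCCCGC, TTTCGCGC, TTTGCCGC and TTTGGCGC, for the CHR hexamer TTTGAA and for the pentamer CCAAT. An E2F octamer stood in 6 of 13 S phase genes and in 1 of 15 mitotic genes, beside 2.26% of all 32851 windows. The CHR hexamer stood in 1 of 13 S phase genes and in 11 of 15 mitotic genes, beside 17.9% of all windows. CCAAT stood in 8 of 13 S phase genes and in 14 of 15 mitotic genes, beside 37.4% of all windows. A gene with several windows was counted once if any held the letters, and a match is a description, not a tested binding site. The 250 bases before the start are shown for 2 S phase genes with E2F octamers (*Mcm6* at chr1:128359706-128359955 on the minus strand and *Cdc6* at chr11:98907901-98908150 on the plus strand), for 2 mitotic genes with a CHR hexamer (*Cdc20* at chr4:118437344-118437593 on the minus strand and *Ube2c* at chr2:164769679-164769928 on the plus strand) and for *Cdk1* (at chr10:69352913-69353162 on the minus strand), the only mitotic gene with both. The starts are those of RefSeq and can differ from the gene bounds of the annotation used for the counts. The *Cdc6* stretch lies inside those bounds, which begin at chr11:98907801. Capitals mark the letters of any of these motifs on either strand, and those that overlap run together, as with the first 2 of the 3 octamers of *Mcm6*.
Mcm6: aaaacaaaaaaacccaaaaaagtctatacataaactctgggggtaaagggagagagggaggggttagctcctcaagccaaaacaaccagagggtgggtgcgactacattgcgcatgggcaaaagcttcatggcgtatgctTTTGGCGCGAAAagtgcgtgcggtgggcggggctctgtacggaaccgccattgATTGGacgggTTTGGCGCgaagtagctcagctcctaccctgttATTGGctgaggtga
Cdc6: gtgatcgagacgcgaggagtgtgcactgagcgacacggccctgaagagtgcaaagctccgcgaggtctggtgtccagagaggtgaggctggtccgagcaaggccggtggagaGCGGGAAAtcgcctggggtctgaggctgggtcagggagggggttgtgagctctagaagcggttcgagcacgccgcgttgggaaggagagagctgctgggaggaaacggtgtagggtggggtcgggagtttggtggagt
Cdc20: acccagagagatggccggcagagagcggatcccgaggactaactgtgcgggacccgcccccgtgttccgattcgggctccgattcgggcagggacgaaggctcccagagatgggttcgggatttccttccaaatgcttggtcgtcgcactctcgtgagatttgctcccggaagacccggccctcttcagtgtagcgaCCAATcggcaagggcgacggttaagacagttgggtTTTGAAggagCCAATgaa
Ube2c: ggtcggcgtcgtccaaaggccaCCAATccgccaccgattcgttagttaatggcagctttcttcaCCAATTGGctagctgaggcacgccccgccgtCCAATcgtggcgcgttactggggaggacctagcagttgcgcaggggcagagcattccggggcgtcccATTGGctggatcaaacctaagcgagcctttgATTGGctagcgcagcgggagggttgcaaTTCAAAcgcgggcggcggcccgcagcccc
Cdk1: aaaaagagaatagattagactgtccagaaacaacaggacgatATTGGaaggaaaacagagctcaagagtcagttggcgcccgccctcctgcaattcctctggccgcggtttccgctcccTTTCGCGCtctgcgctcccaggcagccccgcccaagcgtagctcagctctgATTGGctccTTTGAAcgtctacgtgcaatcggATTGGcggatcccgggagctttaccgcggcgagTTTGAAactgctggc

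The estimated counts summed to between 23445922 and 51995372 per library (median 27420966). Normalized counts below are these counts scaled with TMM factors to a common library size, and 12255 genes passed a filter on low counts. Of the 46 genes 45 passed and *Ccnd1* did not. A gene was called changed at a Benjamini-Hochberg adjusted p below 0.05 in edgeR's quasi-likelihood test, where normalized counts averaged 50 or more and the log2 fold change exceeded 0.2 in size. TPM, which are per length, were used only to set genes or sums of genes side by side, because the ratio of TPM to normalized counts per kilobase moved between libraries, from 0.757 times its mean in library E to 1.23 times in the repeat peptide DMSO library of experiment A. The 6 CD8 T cell markers were high in every library, *Cd8a* at 312 to 677 TPM and *Cd3e* at 269 to 517 TPM. Between the DMSO groups 2 of the 6 were called higher with repeat peptide and 3 lower, beside 22.8% and 24.2% of all tested genes. Their log2 fold changes ran from 0.67 for *Cd3g* to -1.54 for *Cd8b1*. Of 14 markers of other cell types 9 stayed below 1 TPM throughout, with *Hbb-bs* and *Alas2* at 0 and *Cd4* at no more than 0.17 TPM. The others reached 8.49 (*Foxp3*), 7.08 (*Cd79b*), 5.92 (*Lyz2*), 1.84 (*Hba-a1*) and 1.16 TPM (*Ncr1*) in their highest library. Their sum was 4.63 to 11.4 TPM with single peptide and DMSO, 5.48 to 12.6 with single peptide and ibrutinib, 1.38 to 2.73 with repeat peptide and DMSO and 3.09 to 5.69 with repeat peptide and ibrutinib. The sum was higher in single than in repeat peptide DMSO libraries. *Foxp3* and *Cd79b* were the 2 markers of other cell types called lower with repeat peptide, and their part in the results was not tested. In such bulk samples fewer cycling cells and less RNA per cell cannot be told apart.

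Repeat peptide stimulation with DMSO was compared with single peptide stimulation to ask how the division program stood in cells kept with antigen. All 16 S phase and all 20 mitotic genes were called higher in repeat peptide cells. Of the 45 tested genes 39 were called higher, where 22.8% of all tested genes were, and 3 were called lower (*Ccnd2*, *Ccnd3* and *Cdkn1b*), where 24.2% were. The median log2 fold change was 1.21 for the S phase genes and 1.76 for the mitotic genes, beside -0.0022 for all tested genes. Every S phase and mitotic gene was higher in each of experiments A to D in normalized counts, without overlap between the groups. The share of all tested genes that did so was not counted. With ibrutinib in both arms the same contrast again called all 16 and all 20 higher, with medians of 1.49 and 2.46. It called 39 of the 45 genes higher, beside 18.7% of all genes, and 2 lower (*Ccnd2* and *Cdkn1b*), beside 19.6%. The contrasts share their libraries with those of ibrutinib below, so they are not independent of one another.

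**Figure D1:**
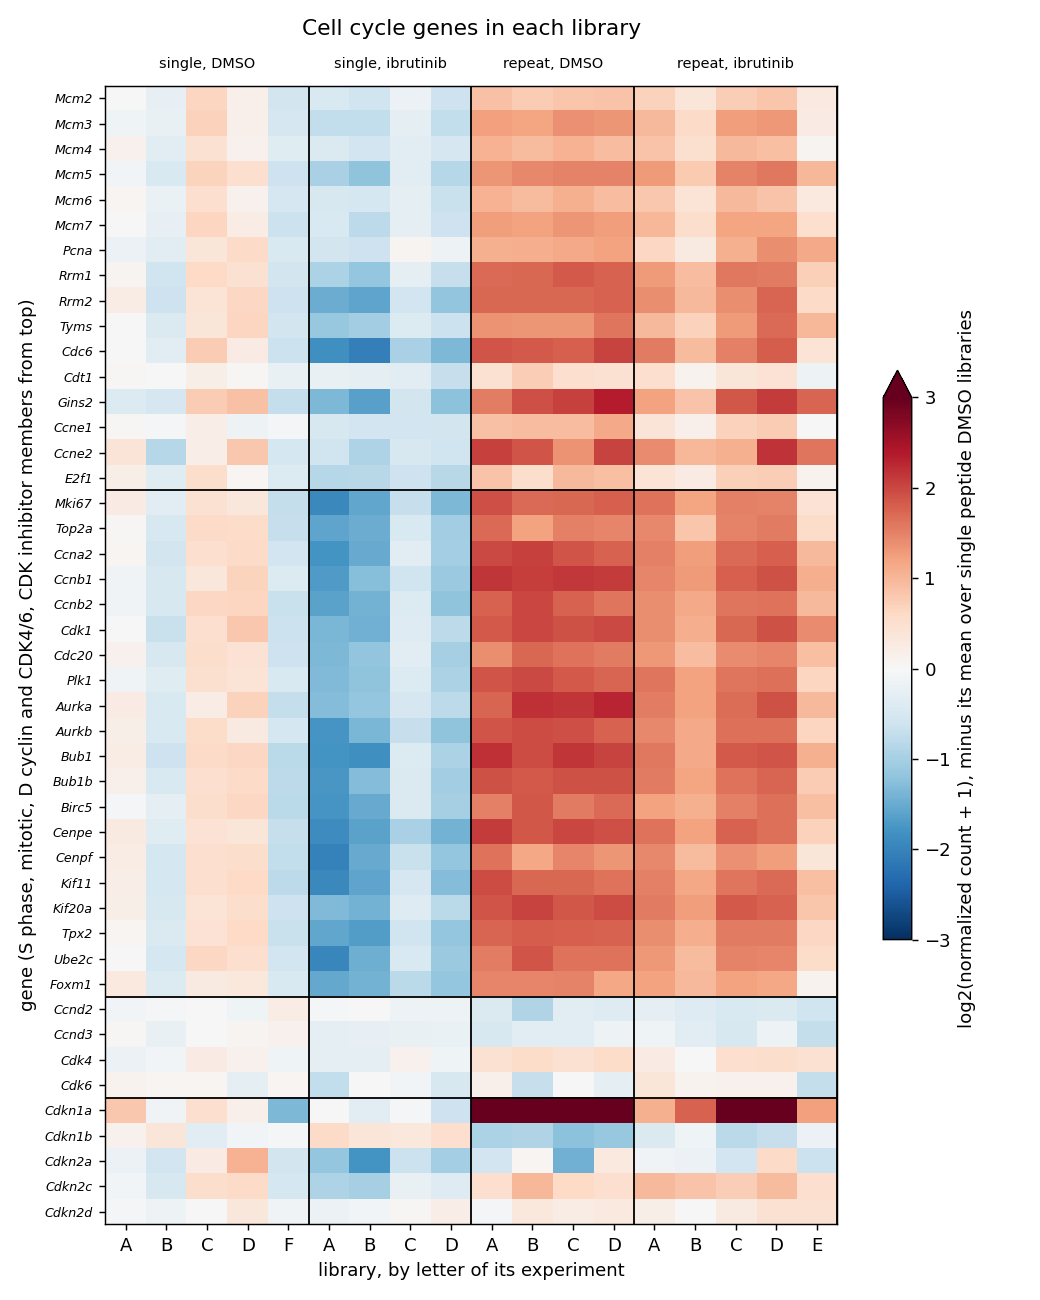
Heat map of the 45 tested genes (rows, in the order S phase, mitotic, D cyclin and CDK4/6, CDK inhibitor) in the 18 libraries (columns, by group and letter of experiment). Colour is log2(normalized count + 1) minus its mean over the 5 single peptide DMSO libraries, and values above 3 share the darkest red. The S phase and mitotic genes are red in repeat peptide cells with DMSO, mostly red in those with ibrutinib, and mostly blue in single peptide cells with ibrutinib. In library E some of them, such as Cdt1 and Ccne1, are near the single peptide DMSO mean. The D cyclins are pale throughout, and Cdkn1a is above 3 in all 4 repeat peptide DMSO libraries.

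In single peptide stimulated cells, ibrutinib went with lower levels of the division program. All 20 mitotic genes and 6 of the 16 S phase genes (*Mcm5*, *Rrm2*, *Cdc6*, *Gins2*, *Ccne1* and *E2f1*) were called lower with ibrutinib. These 26 were all the calls among the 45 tested genes, where 2.69% of all tested genes were called lower and 0.351% higher. The other 10 S phase genes had fitted values below 0 without passing the test, from -0.85 for *Tyms* to -0.34 for *Pcna*. The median log2 fold change was -0.72 for S phase genes and -1.19 for mitotic genes, beside 0.01 for all tested genes. All 36 of these genes were lower with ibrutinib in each of experiments A to D, as were 17.2% of all tested genes. The number of calls depended on the libraries and on the fit. It was 6 without the ibrutinib library of experiment A, 7 without that of B and 8 without that of D, and 16, 11 and 12 without the DMSO library of A, C and D. Library F, the DMSO library with no ibrutinib partner, had the lowest normalized count of its group for 30 of the 36 genes, and without it 31 were called, with medians of -0.84 for S phase and -1.33 for mitotic genes. The number was 6 in a fit of only these 2 groups and 12 without a filter on low counts. It was 34 in experiments A to D alone, an alternative chosen after seeing the data, with 3.96% of all genes called, and 38 with the experiment as a block in the fit (9.09% of all genes called), where 15 S phase and 20 mitotic genes were called lower. In that block fit the single libraries of experiments E and F do not bear on the group differences. No share of all genes is given for fits with a library left out, with only these 2 groups or without the filter. *Mki67*, *Cdc6*, *Cenpe*, *Aurkb* and *Foxm1* were called lower in all 19 other fits, and *Mcm5*, the least steady, in 8 of them.

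In repeat peptide stimulated cells, ibrutinib changed few of these genes past the threshold. *Ccne1* and *Cdkn1a* were called lower and *Cdkn1b* higher. These 2 lower and 1 higher calls among 45 stand beside 1.92% and 4.01% of all tested genes. The other 15 S phase genes and all 20 mitotic genes had fitted values below 0, with a median of -0.34 for S phase and -0.47 for mitotic genes beside 0.0045 for all genes, and 9 of the 36 had an unadjusted p below 0.05 in edgeR. The share of all tested genes below that unadjusted p is not given, here or beside such counts further on. DESeq2's Wald test called 3 of the 45 genes. The share of all tested genes called by DESeq2 is not given, here or beside its other counts. Of the 36 genes 27 were lower with ibrutinib in each of experiments A to D, where 19.9% of all tested genes were. Library E, which has no repeat peptide DMSO partner, had the lowest normalized count of its group for 30 of the 36 genes. Without it the medians were -0.24 and -0.35 and the same 3 genes were called, beside 4.44% of all tested genes. A block for the experiment brought the calls to 6 (13.8% of all genes), and *Rrm1*, *Aurka* and *Cenpe* were then also called lower. Without the DMSO library of experiment D only *Cdkn1a* was called.

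**Figure D2:**
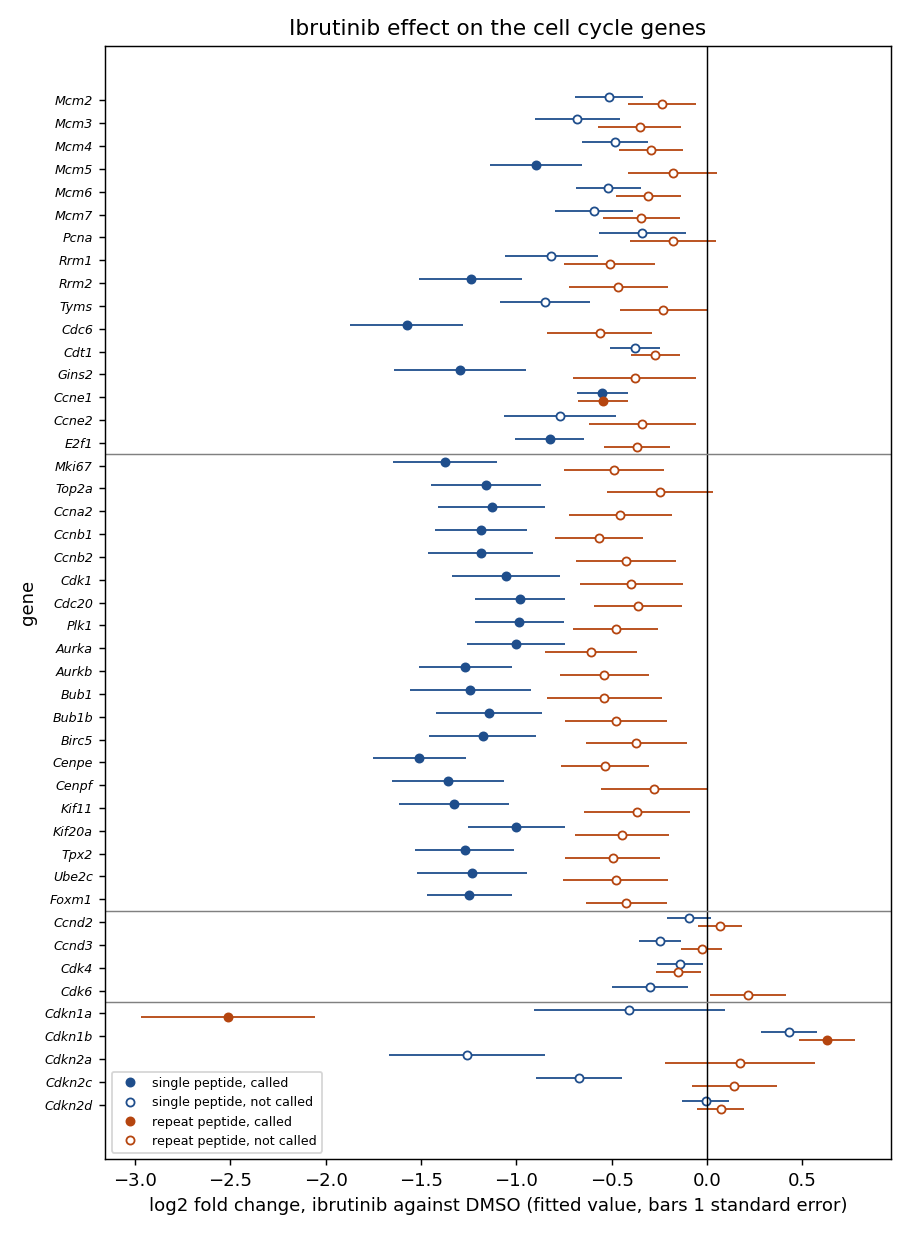
Fitted log2 fold change of ibrutinib against DMSO (horizontal axis, with bars of 1 standard error) for each of the 45 tested genes (vertical axis), in single peptide (blue) and repeat peptide (orange) cells. Filled circles passed the thresholds. The blue points of the 20 mitotic genes lie between -1.51 and -0.98, and the orange ones between -0.61 and -0.25.

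Whether ibrutinib acted differently on the 2 kinds of cells was tested as an interaction. The fitted difference (the effect in repeat minus that in single peptide cells) was above 0 for all 36 S phase and mitotic genes, with a median of 0.32 for S phase and 0.74 for mitotic genes beside 0.02 for all genes. None of the 45 genes passed in edgeR's quasi-likelihood test, where 1.26% of all tested genes did, and 14 had an unadjusted p below 0.05. DESeq2's Wald test also called 0. With the experiment as a block 15 were called (5.54% of all genes), 5 of S phase (*Mcm5*, *Rrm2*, *Tyms*, *Cdc6* and *E2f1*) with *Cdc6* furthest at 1.27, and 10 of mitosis with *Cenpf* furthest at 1.36. In experiments A to D without the block 2 were called (1.28% of all genes), *Cenpe* and *Foxm1*. Whether the difference between the stimulations passed thus depended on the fit. Libraries of an experiment deviated from their group means together, with a median correlation of 0.327 against -0.079 for other pairs. Only the block fit takes this pairing into account.

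Among the S phase genes, *Cdc6* (ENSMUSG00000017499, chr11:98907801-98923940 of GRCm38) encodes a loader of the replicative helicase and moved furthest under ibrutinib. In all lists of values below, libraries are in the order A, B, C, D and F for single peptide with DMSO, A to D for single peptide with ibrutinib and for repeat peptide with DMSO, and A to E for repeat peptide with ibrutinib. The normalized counts of *Cdc6* were 516, 415, 886, 624 and 334 with single peptide and DMSO and 146, 127, 268 and 204 once ibrutinib was added. Repeat peptide libraries of *Cdc6* held 1952, 1891, 1806 and 2139 with DMSO and 1539, 1006, 1495, 1846 and 697 with ibrutinib. The single peptide libraries with ibrutinib lay below all those with DMSO, and library E held the lowest of the repeat peptide ibrutinib values. *Cdc6* was 3.51-fold higher in repeat than in single peptide cells with DMSO, a log2 fold change of 1.81 ± 0.28 (SE, adjusted p = 3.37e-05). In single peptide cells it was 2.98-fold lower with ibrutinib, at -1.57 ± 0.30 (SE, adjusted p = 0.00706). The value in repeat peptide cells was -0.56 ± 0.28 (SE, adjusted p = 0.244), which did not pass. Under ibrutinib *Cdc6* had the largest S phase difference between the stimulations, 7.08-fold.

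*Gins2* encodes a subunit of GINS, which joins the MCM ring into the active helicase, and rose furthest among the S phase genes with DMSO. Single peptide libraries of *Gins2* held 241, 226, 544, 584 and 193 normalized counts with DMSO and 125, 103, 219 and 137 with ibrutinib. Under repeat peptide, *Gins2* reached 925, 1230.1, 1335 and 1638 with DMSO and 736, 580.1, 1168, 1366 and 1078 with ibrutinib. The repeat peptide DMSO libraries all exceeded the single peptide ones, and libraries D stood highest in both DMSO groups. The log2 fold change was 1.84 ± 0.33 (SE, adjusted p = 0.000141) between the DMSO groups and -1.29 ± 0.35 (SE, adjusted p = 0.0489) with ibrutinib in single peptide cells. The 6 genes of the MCM ring itself rose less with repeat peptide, by log2 fold changes from 0.78 for *Mcm2* to 1.34 for *Mcm5*. With ibrutinib in single peptide cells only *Mcm5* of the ring passed, at -0.89 ± 0.24 (SE, adjusted p = 0.0497). The least raised of the 16 was *Cdt1*, the partner of *Cdc6* in helicase loading, at 0.53.

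*Pcna* encodes the sliding clamp of DNA polymerase and was the S phase gene with the highest TPM in all 4 groups, at 238 ± 47.3 TPM (SD, n = 5) with single peptide and DMSO and 582 ± 39.9 TPM (SD, n = 4) with repeat peptide and DMSO. For *Pcna*, normalized counts were 6557, 5911, 9547, 11087 and 5415 in single peptide cells with DMSO and 5017, 4778, 7887 and 6698 with ibrutinib. Those of *Pcna* in repeat peptide cells were 15455, 15839, 16246 and 17049 with DMSO and 11446, 8914, 15392, 19366 and 16202 with ibrutinib. The repeat peptide DMSO libraries lay above every single peptide library, and library E was here the second highest of its group. *Pcna* rose 2.1-fold with repeat peptide (log2 fold change 1.07, SE 0.23, adjusted p = 0.000656). Its ibrutinib values, -0.34 ± 0.23 (SE, adjusted p = 0.589) in single and -0.18 ± 0.23 (SE, adjusted p = 0.696) in repeat peptide cells, did not pass and were the closest to 0 of all S phase genes. Its counts were fractional in all 18 libraries, since reads that also matched other sequences were shared out. The nucleotide suppliers *Rrm1*, *Rrm2* (subunits of ribonucleotide reductase) and *Tyms* (thymidylate synthase) rose with repeat peptide by 1.68, 1.64 and 1.33 on the log2 scale. With ibrutinib in single peptide cells *Rrm2* fell by 1.24 on that scale (SE 0.27, adjusted p = 0.0169), and *Rrm1* and *Tyms* missed the threshold with adjusted p-values of 0.0838 and 0.0607.

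*Ccne1* and *Ccne2* encode the E cyclins that open S phase. *Ccne1* had 1079.5, 1029, 1201, 944 and 1005 normalized counts in the single peptide DMSO libraries and 754, 706, 701 and 715 in those with ibrutinib. With repeat peptide, *Ccne1* had 1939, 2007, 1981 and 2319 with DMSO and 1381, 1159, 1689, 1778 and 1046 with ibrutinib. *Ccne1* stood apart among the S phase genes in that ibrutinib values did not overlap DMSO values in either kind of cell. The log2 fold change of ibrutinib was -0.55 ± 0.13 (SE, adjusted p = 0.03) in single and -0.55 ± 0.13 (SE, adjusted p = 0.016) in repeat peptide cells, and the fitted difference between them was 0.00 ± 0.18 (SE). The repeat peptide call was lost without the DMSO library of D (adjusted p = 0.0835), without the ibrutinib library of B (adjusted p = 0.0532) and in a fit of only the compared groups (adjusted p = 0.0838). The normalized counts of *Ccne2* were 414, 174, 361, 556 and 219 with single peptide and DMSO and 208, 167, 228 and 208 once ibrutinib was added. Repeat peptide libraries of *Ccne2* held 1316, 1179, 803 and 1288 with DMSO and 843, 630.2, 660.2, 1423 and 964 with ibrutinib. *Ccne2* varied more between libraries of a group, and its groups with and without ibrutinib overlapped. It rose with repeat peptide, by 1.73 ± 0.29 (SE, adjusted p = 6.37e-05), and its ibrutinib values of -0.77 in single and -0.34 in repeat peptide cells did not pass.

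*E2f1* encodes the factor that switches on many of these genes and is itself among its targets. Single peptide libraries of *E2f1* held 814, 552, 1029.8, 751 and 541 normalized counts with DMSO and 396, 403, 466 and 401 with ibrutinib. Under repeat peptide, *E2f1* reached 1289, 1039.6, 1416 and 1342 with DMSO and 944, 848, 1179, 1192 and 769 with ibrutinib. Single peptide ibrutinib libraries were all below single peptide DMSO libraries, whereas the repeat peptide groups overlapped. *E2f1* was 1.73-fold higher with repeat peptide and DMSO (log2 fold change 0.79, SE 0.17, adjusted p = 0.000984) and 1.77-fold lower with ibrutinib in single peptide cells (-0.82, SE 0.18, adjusted p = 0.0165). The value in repeat peptide cells was -0.37 ± 0.17 (SE, adjusted p = 0.231).

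**Figure D3:**
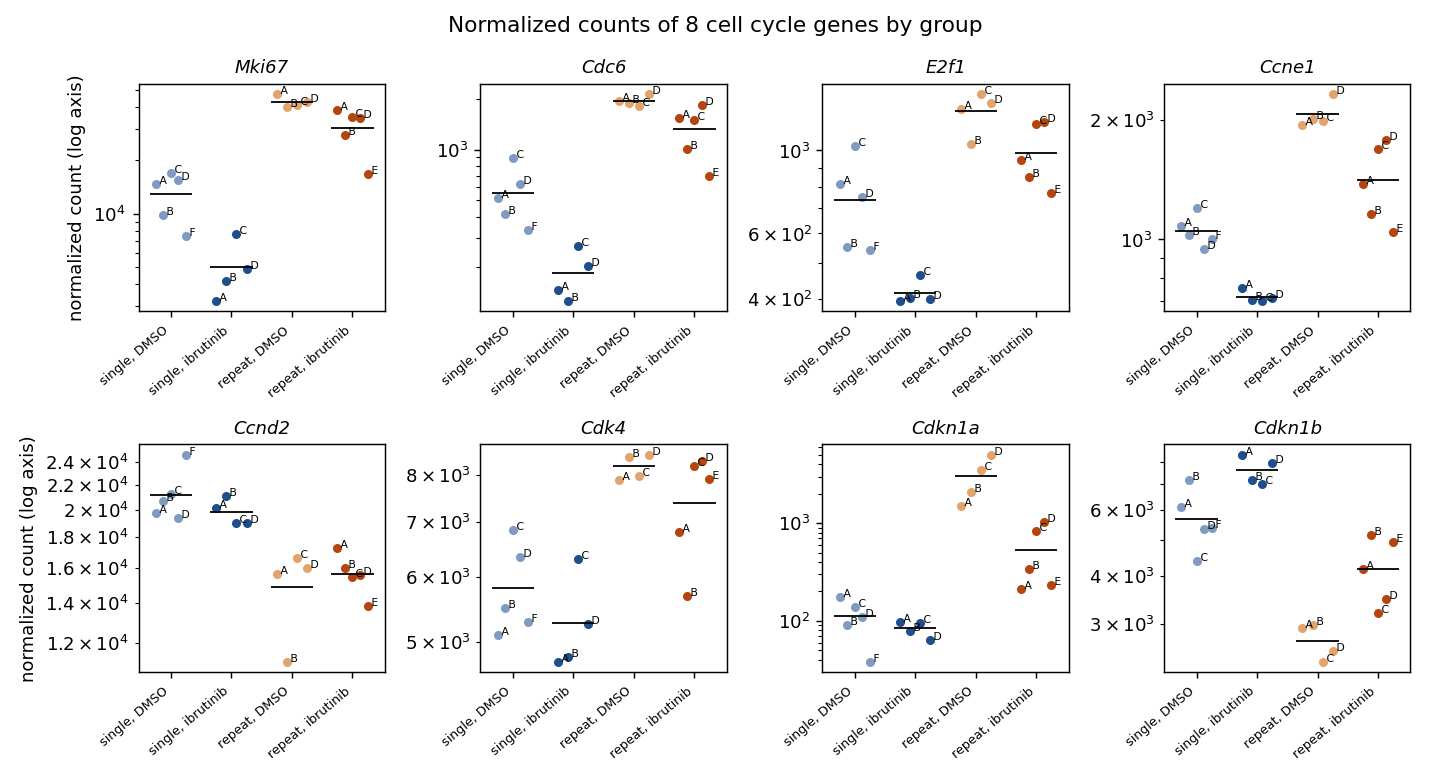
Normalized counts (vertical log axes, which differ between panels) of 8 genes in the 18 libraries, by group (horizontal axis). Points are libraries with the letter of their experiment and bars are group means. For Mki67, Cdc6, E2f1 and Ccne1 the 4 repeat peptide DMSO libraries lie above all single peptide libraries, Ccnd2 runs the other way, and Cdkn1a reaches 5019 in repeat peptide cells with DMSO.

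Of the mitotic genes, *Mki67* (ENSMUSG00000031004, chr7:135689784-135716361) encodes Ki-67, a protein of dividing cells widely used as a marker of proliferation. For *Mki67*, normalized counts were 14592, 9858, 16938, 15539 and 7516 in single peptide cells with DMSO and 3219, 4185, 7638 and 4866 with ibrutinib. Those of *Mki67* in repeat peptide cells were 47181, 39957, 40937 and 42595 with DMSO and 38147, 27792, 34897, 34523 and 16670.1 with ibrutinib. Repeat peptide DMSO libraries exceeded all other libraries, and library E lay close to the highest single peptide DMSO value. *Mki67* was 3.31-fold higher with repeat peptide and DMSO, at 1.73 ± 0.26 (SE, adjusted p = 2.94e-05). With ibrutinib it was 2.59-fold lower in single peptide cells, at -1.37 ± 0.27 (SE, adjusted p = 0.00899), and its value in repeat peptide cells was -0.49 ± 0.26 (SE, adjusted p = 0.288). The fitted difference of the ibrutinib effects was 0.88 ± 0.37 (SE, adjusted p = 0.351), and 1.18 with the experiment as a block (adjusted p = 0.0111).

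*Top2a* encodes the topoisomerase that untangles sister chromatids and had the highest TPM of the mitotic genes in all 4 groups, from 67.1 ± 15.7 TPM (SD, n = 4) in single peptide cells with ibrutinib to 479.7 ± 63.5 TPM (SD, n = 4) in repeat peptide cells with DMSO. *Top2a* had 13818, 9595, 20219, 19746 and 8415 normalized counts in the single peptide DMSO libraries and 4525, 4819, 9806 and 6567 in those with ibrutinib. With repeat peptide, *Top2a* had 43891, 30880.1, 38233 and 36937 with DMSO and 36646, 24137, 37875, 39638 and 19794 with ibrutinib. Groups with and without ibrutinib overlapped in both kinds of cells, and in single peptide cells each ibrutinib library was below the DMSO library of its experiment. *Top2a* rose by 1.38 ± 0.28 (SE, adjusted p = 0.000444) with repeat peptide and DMSO and fell with ibrutinib in single peptide cells, at -1.16 ± 0.29 (SE, adjusted p = 0.0329). Its value with ibrutinib in repeat peptide cells was the mitotic one closest to 0, -0.25 ± 0.28 (SE, adjusted p = 0.656).

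*Ccnb1* encodes the cyclin whose arrival at CDK1 starts mitosis. The normalized counts of *Ccnb1* were 963, 732, 1300.0, 1644 and 769 with single peptide and DMSO and 317, 426, 685 and 477 once ibrutinib was added. Repeat peptide libraries of *Ccnb1* held 4559.5, 4330.1, 4456 and 4433 with DMSO and 2866, 2504, 3546, 3871 and 2207 with ibrutinib. Groups with and without ibrutinib did not overlap in either kind of cell. With DMSO it had the largest rise of the 20 mitotic genes with repeat peptide, 4.11-fold (2.04, SE 0.23, adjusted p = 1.33e-06). It fell with ibrutinib in single peptide cells, at -1.18 ± 0.24 (SE, adjusted p = 0.0109), and its value in repeat peptide cells was -0.57 ± 0.23 (SE, adjusted p = 0.153). Its counts were fractional in 15 libraries. *Ccna2*, *Ccnb2* and *Cdk1*, the other cyclins and the kinase of this step, rose with repeat peptide by 1.85, 1.69 and 1.81 on the log2 scale and fell with ibrutinib in single peptide cells by 1.13, 1.19 and 1.06 on that scale.

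*Cenpe* encodes a motor that carries chromosomes to the spindle centre and had the largest fall of the mitotic genes with ibrutinib in single peptide cells. Single peptide libraries of *Cenpe* held 2339, 1501, 2624, 2494 and 1198 normalized counts with DMSO and 522, 634, 981 and 720.0 with ibrutinib. Under repeat peptide, *Cenpe* reached 8273, 7084, 7795 and 7359 with DMSO and 5965, 4483, 6572, 6142 and 3153 with ibrutinib. For *Cenpe* the groups with and without ibrutinib did not overlap in either kind of cell. It changed by -1.51 ± 0.24 (SE, adjusted p = 0.00355) in single peptide cells and had a value of -0.54 ± 0.23 (SE, adjusted p = 0.182) in repeat peptide cells, and under ibrutinib it was 7.37-fold higher in repeat than in single peptide cells, the widest gap of the mitotic genes. For *Cenpf*, normalized counts were 3368, 1976, 4064, 4163 and 1715 in single peptide cells with DMSO and 699.7, 997, 1800.0 and 1275 with ibrutinib. Those of *Cenpf* in repeat peptide cells were 8857, 6426, 7916 and 7176 with DMSO and 7839, 5541, 7412, 6856 and 3674 with ibrutinib. *Cenpf* encodes a kinetochore protein and overlapped between ibrutinib and DMSO in both kinds of cells. Its log2 fold change with ibrutinib was -1.36 ± 0.29 (SE, adjusted p = 0.0158) in single peptide cells and -0.28 ± 0.28 (SE, adjusted p = 0.607) in repeat peptide cells, and the difference of 1.08 ± 0.40 (SE, adjusted p = 0.255) was the largest of the mitotic genes. Other genes of the spindle and its checkpoint (*Bub1*, *Bub1b*, *Kif11*, *Kif20a*, *Tpx2* and *Birc5*) rose with repeat peptide by 1.57 (*Birc5*) to 1.97 (*Bub1*) on the log2 scale.

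*Aurka* encodes the kinase that matures the spindle poles. *Aurka* had 523, 323, 517, 719 and 271 normalized counts in the single peptide DMSO libraries and 178, 197, 309.7 and 257 in those with ibrutinib. With repeat peptide, *Aurka* had 1495, 2032, 1974 and 2146 with DMSO and 1291, 1024, 1412, 1659 and 875 with ibrutinib. The repeat peptide DMSO libraries lay above all single peptide libraries, and those of B, C and D also above every repeat peptide ibrutinib library. *Aurka* was 4.05-fold higher with repeat peptide and DMSO (2.02, SE 0.25, adjusted p = 2.76e-06). It had the largest fitted fall of the mitotic genes with ibrutinib in repeat peptide cells, -0.61 ± 0.24 (SE, adjusted p = 0.143), which passed only with the experiment as a block, at -0.53 (adjusted p = 0.0277). *Aurkb* and *Plk1* encode kinases of mitosis, *Cdc20* an activator of the ubiquitin ligase that ends it, and *Ube2c* a ubiquitin-conjugating enzyme that works with this ligase. With ibrutinib in single peptide cells *Aurkb*, *Plk1*, *Cdc20* and *Ube2c* fell by 1.27, 0.98, 0.98 and 1.23 on the log2 scale.

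*Foxm1* encodes the factor that activates the late genes of division. The normalized counts of *Foxm1* were 1887, 1149, 1867, 1908 and 1111 with single peptide and DMSO and 532, 575, 884 and 682 once ibrutinib was added. Repeat peptide libraries of *Foxm1* held 4278, 4265, 4290.3 and 3463 with DMSO and 3545, 3029, 3538, 3415 and 1665 with ibrutinib. Single peptide ibrutinib libraries lay below all single peptide DMSO libraries, and library E stood well below the rest of its group. *Foxm1* was 2.57-fold higher with repeat peptide and DMSO (1.36, SE 0.21, adjusted p = 3.97e-05) and 2.37-fold lower with ibrutinib in single peptide cells (-1.25, SE 0.22, adjusted p = 0.00603). The value in repeat peptide cells was -0.42 ± 0.21 (SE, adjusted p = 0.257).

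The balance of mitotic to S phase transcripts was read within each library, so that it does not depend on the scale of the library. The 16 S phase genes together had 1035, 788, 1201, 988 and 699 TPM in the single peptide DMSO libraries and 642, 615, 631 and 536 TPM in those with ibrutinib. They reached 2591, 2199.9, 2486 and 2382 TPM with repeat peptide and DMSO and 2025, 1625, 2108, 2226 and 1123 TPM with repeat peptide and ibrutinib. The ratio of the mitotic sum to the S phase sum was 0.786 ± 0.0831 (SD, n = 5) with single peptide and DMSO and 0.504 ± 0.11 (SD, n = 4) with single peptide and ibrutinib. It was 1.1 ± 0.0435 (SD, n = 4) with repeat peptide and DMSO and 1.03 ± 0.131 (SD, n = 5) with repeat peptide and ibrutinib. The 2 single peptide groups did not overlap, at 0.851, 0.71, 0.8, 0.879 and 0.693 with DMSO against 0.379, 0.479, 0.645 and 0.514 with ibrutinib. The repeat peptide groups overlapped, at 1.12, 1.15, 1.07 and 1.06 against 1.14, 1.14, 1.05, 0.982 and 0.826. With ibrutinib in single peptide cells the mean mitotic sum was 0.406 times that with DMSO and the S phase sum 0.643 times. In repeat peptide cells these were 0.715 and 0.754 times, and 0.807 and 0.827 times without library E. These folds between groups rest on TPM, whose scale moved between libraries, and were weaker in normalized counts per kilobase. There the mitotic and S phase sums were 0.444 and 0.688 times in single peptide cells. In repeat peptide cells they were 0.756 and 0.809 times, with library E included.

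**Figure D4:**
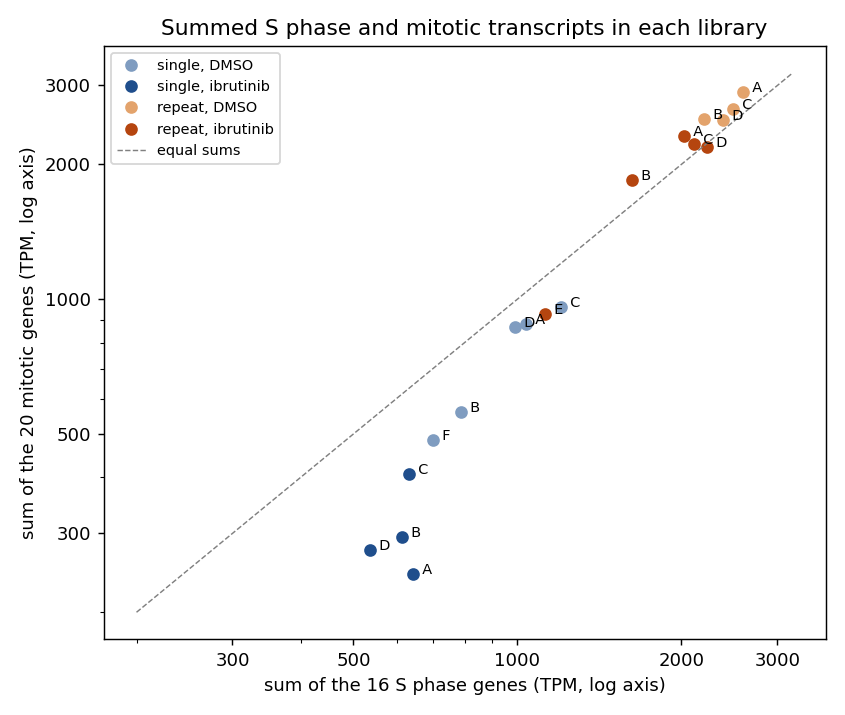
Summed TPM of the 20 mitotic genes (vertical log axis) against that of the 16 S phase genes (horizontal log axis) in each of the 18 libraries, coloured by group and lettered by experiment, with the line of equal sums dashed. The repeat peptide DMSO libraries lie above the line, at ratios of 1.06 to 1.15, and single peptide ibrutinib libraries furthest below it, at 0.379 to 0.645. Library E, whose ratio of TPM to normalized counts per kilobase was the lowest (0.757 times the mean), lies by TPM among the single peptide DMSO libraries. In normalized counts it exceeded all of these for some genes, such as Ccnb1, but not for others, such as Foxm1.

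Of the D cyclins and their kinases, *Ccnd2* and *Ccnd3* were called lower and *Cdk4* higher with repeat peptide and DMSO. *Ccnd1* had at most 6 estimated counts in any library and was not tested. *Ccnd2* and *Ccnd3* encode the D cyclins of lymphocytes. Single peptide libraries of *Ccnd2* held 19734, 20681, 21209, 19333 and 24674 normalized counts with DMSO and 20104, 21083, 18963 and 18990.1 with ibrutinib. Under repeat peptide, *Ccnd2* reached 15654, 11169, 16610.0 and 16011 with DMSO and 17286, 15972, 15434, 15536 and 13822 with ibrutinib. The repeat peptide libraries were all below the single peptide ones. *Ccnd2* fell by 0.51 on the log2 scale with repeat peptide and DMSO (SE 0.12, adjusted p = 0.00126) and by 0.34 with ibrutinib in both arms (SE 0.11, adjusted p = 0.0221). The latter call was lost without the ibrutinib library of A or of B of single peptide cells (-0.31 in each case) and with an offset for effective length (-0.18). For *Ccnd3*, normalized counts were 6653, 5533, 6401, 6911 and 7085 in single peptide cells with DMSO and 5265, 5513, 5522 and 5647 with ibrutinib. Those of *Ccnd3* in repeat peptide cells were 4646, 5156, 5169 and 5821 with DMSO and 5915, 5175, 4645, 5818 and 3938 with ibrutinib. The groups overlapped in all 4 comparisons. *Ccnd3* was lower with repeat peptide and DMSO, at -0.33 ± 0.11 (SE, adjusted p = 0.0183), a call lost without the repeat peptide DMSO library of A (-0.28). Ibrutinib values were -0.09 and -0.25 in single and 0.07 and -0.03 in repeat peptide cells for *Ccnd2* and *Ccnd3*, and none passed.

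*Cdk4*, a kinase partner of the D cyclins, rose with repeat peptide. *Cdk4* had 5099, 5507, 6852, 6354 and 5287 normalized counts in the single peptide DMSO libraries and 4728, 4792, 6313 and 5259 in those with ibrutinib. With repeat peptide, *Cdk4* had 7898, 8424, 7985 and 8470.2 with DMSO and 6813, 5691, 8216, 8327 and 7905 with ibrutinib. Repeat peptide DMSO libraries all exceeded single peptide libraries. *Cdk4* was 1.41-fold higher with repeat peptide and DMSO (0.49, SE 0.12, adjusted p = 0.00202) and 1.4-fold higher with ibrutinib in both arms (0.49, SE 0.12, adjusted p = 0.00346). The normalized counts of *Cdk6* were 13085, 12778, 12605, 10102 and 12662 with single peptide and DMSO and 7327, 12323, 11479.6 and 8749 once ibrutinib was added. Repeat peptide libraries of *Cdk6* held 13574, 7570.2, 12276 and 10049 with DMSO and 15809.5, 13191, 13364, 13238 and 7424 with ibrutinib. All groups of *Cdk6*, the second partner kinase, overlapped, and its values of -0.17 and 0.34 between the stimulations and of -0.30 and 0.21 with ibrutinib did not pass. Under ibrutinib the value between the stimulations passed with the experiment as a block (0.48, adjusted p = 0.027), without library E (0.48, adjusted p = 0.0324) and in experiments A to D alone (0.48, adjusted p = 0.0375), and with DMSO it passed with an offset for effective length (-0.52, adjusted p = 0.0492). By TPM, *Ccnd3* stood at 173 ± 28.6 and *Cdk4* at 137 ± 9.58 (SD, n = 5) in single peptide cells with DMSO, and at 143 ± 12.1 and 226 ± 16.3 (SD, n = 4) in repeat peptide cells with DMSO.

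The inhibitors split. *Cdkn1a* (ENSMUSG00000023067, chr17:29090976-29100727), which encodes p21 and is a target of p53, had the largest change of all 45 genes in 2 comparisons. Single peptide libraries of *Cdkn1a* held 176, 91.9, 140.2, 110.1 and 38.3 normalized counts with DMSO and 98.6, 78.7, 94.6 and 63.7 with ibrutinib. Under repeat peptide, *Cdkn1a* reached 1514, 2083, 3511 and 5019 with DMSO and 209.8, 340.1, 831, 1028 and 233 with ibrutinib. No single peptide library exceeded 176, and the repeat peptide libraries with ibrutinib lay between those and the repeat peptide libraries with DMSO, without overlap on either side. *Cdkn1a* was 27.2-fold higher with repeat peptide and DMSO (4.76, SE 0.51, adjusted p = 5.25e-07), 5.7-fold lower with ibrutinib in repeat peptide cells (-2.51, SE 0.46, adjusted p = 0.00242) and 6.32-fold higher in repeat than in single peptide cells under ibrutinib (2.66, SE 0.51, adjusted p = 0.000398). In A to D each ibrutinib library of repeat peptide cells was below the DMSO library of its experiment. The single peptide value with ibrutinib was -0.41 ± 0.50 (SE, adjusted p = 0.817), and the difference between the ibrutinib effects was -2.10 ± 0.67 (SE, adjusted p = 0.154), which did not pass. In repeat peptide cells *Cdkn1a* with DMSO had TPM of 92.6 ± 48 (SD, n = 4).

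*Cdkn1b* (ENSMUSG00000003031, chr6:134920401-134925513), which encodes p27, an inhibitor that accumulates in resting lymphocytes, ran opposite to the division genes. For *Cdkn1b*, normalized counts were 6078, 7169.7, 4389, 5321 and 5381 in single peptide cells with DMSO and 8374, 7189.9, 7004 and 7979 with ibrutinib. Those of *Cdkn1b* in repeat peptide cells were 2919.5, 2975, 2384 and 2548 with DMSO and 4172, 5152, 3199, 3478 and 4919 with ibrutinib. The repeat peptide DMSO libraries were the lowest of all, and the ibrutinib libraries of repeat peptide cells lay above them without overlap. *Cdkn1b* was 2.1-fold lower with repeat peptide and DMSO (-1.07, SE 0.15, adjusted p = 1.18e-05) and 1.55-fold higher with ibrutinib in repeat peptide cells (0.63, SE 0.15, adjusted p = 0.0143). Without the repeat peptide DMSO library of C or of D the latter was 0.57 (adjusted p = 0.0655) and 0.61 (adjusted p = 0.0586). In single peptide cells it was higher with ibrutinib in 4 of 4 experiments, at 0.43 ± 0.15 (SE, adjusted p = 0.144), and passed only with the experiment as a block (0.44, adjusted p = 0.00875).

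The INK4 inhibitors changed less evenly. *Cdkn2c* had 1083, 821, 1657, 1724 and 799 normalized counts in the single peptide DMSO libraries and 609.6, 576, 988 and 885 in those with ibrutinib. With repeat peptide, *Cdkn2c* had 1646, 2287, 1753 and 1629 with DMSO and 2272, 2081, 1919, 2213 and 1622 with ibrutinib. *Cdkn2c* (p18) rose with repeat peptide, by 0.59 ± 0.22 (SE, adjusted p = 0.0321) with DMSO and by 1.40 ± 0.23 (SE, adjusted p = 9.36e-05) with ibrutinib. The groups with DMSO overlapped, and that call was lost without any of 5 libraries, down to 0.47 without the single peptide DMSO library of F, without the repeat peptide DMSO library of B, and in experiments A to D alone. With ibrutinib in single peptide cells its value was -0.67 ± 0.23 (SE, adjusted p = 0.145), which passed with the experiment as a block (-0.78, adjusted p = 0.0313) and in DESeq2's Wald test (-0.69, adjusted p = 0.0461). The value in repeat peptide cells was 0.14 ± 0.22 (SE, adjusted p = 0.755). The normalized counts of *Cdkn2a* were 85.5, 64.9, 116, 202 and 66.5 with single peptide and DMSO and 42.7, 27.2, 62.1 and 47.2 once ibrutinib was added. Repeat peptide libraries of *Cdkn2a* held 65.1, 101, 35.2 and 119.5 with DMSO and 89.8, 85.3, 64.9, 146 and 61.9 with ibrutinib. *Cdkn2a*, whose locus encodes p16 and p19Arf, overlapped between most groups, and only the single peptide libraries with ibrutinib stood below all those with DMSO. Its value there of -1.26 ± 0.41 (SE, adjusted p = 0.126) did not pass, and it passed with the experiment as a block, at -1.28 (adjusted p = 0.032), and in DESeq2's Wald test. Under ibrutinib its value between the stimulations was 1.01 ± 0.41 (SE, adjusted p = 0.0533), which passed in several other fits, at 1.11 without library E and 1.23 without the single peptide ibrutinib library of C. Single peptide libraries of *Cdkn2d* held 1691, 1580.4, 1742, 2237 and 1629.5 normalized counts with DMSO and 1565, 1677, 1801 and 2028 with ibrutinib. Under repeat peptide, *Cdkn2d* reached 1715, 2205, 2059.8 and 2157 with DMSO and 2001, 1739, 2141, 2399.9 and 2415 with ibrutinib. *Cdkn2d* (p19) stayed within a narrow range. Its fitted values ran from -0.01 to 0.28 and did not pass. Some other fits called it higher with repeat peptide. Under ibrutinib these were the block fit (0.23, adjusted p = 0.0378) and those without the single peptide ibrutinib library of D (0.37) or the repeat peptide ibrutinib library of A (0.33) or B (0.37), and with DMSO the fit without the single peptide DMSO library of D (0.29).

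Lists of other genes of the cycle were read beside the 46. Of all tested genes 22.8% were called higher and 24.2% lower with repeat peptide and DMSO. With ibrutinib in both arms these shares were 18.7% and 19.6%. For ibrutinib against DMSO, 0.351% were called higher and 2.69% lower in single peptide cells. In repeat peptide cells 4.01% were called higher and 1.92% lower. Of 40 other replication genes 34 were called higher with repeat peptide and DMSO, led by *Orc1*, a subunit of the origin recognition complex, at 2.28 ± 0.29 (SE, adjusted p = 4.79e-06). With ibrutinib 11 of the 40 were called lower in single peptide cells (*Orc1* at -1.82, SE 0.32, adjusted p = 0.00592) and none in repeat peptide cells in edgeR, where 10 had an unadjusted p below 0.05. Of 52 other mitotic genes 50 were called higher with repeat peptide and DMSO, led by *Cenpa*, the histone of centromeres, at 2.06 ± 0.13 (SE, adjusted p = 1.22e-09). With ibrutinib 40 were called lower in single peptide cells, led by *Cep55*, which works in the last separation of the cells, at -1.58 ± 0.28 (SE, adjusted p = 0.00592). Only 2 were called lower in repeat peptide cells, with *Gtse1* furthest at -0.96 ± 0.25 (SE, adjusted p = 0.0284). The medians of the mitotic list with ibrutinib were -1.14 and -0.40 in single and repeat peptide cells.

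Of 18 genes of the RB, E2F and DREAM proteins 13 were called higher with repeat peptide and DMSO, led by *Mybl2* at 1.99 ± 0.26 (SE, adjusted p = 5.21e-06). With ibrutinib the repressive E2F genes *E2f7* and *E2f8* and *Mybl2* were called lower in single peptide cells (*E2f8* at -1.48, SE 0.29, adjusted p = 0.00899), and *Lin54*, which binds the CHR, was the only one called lower in repeat peptide cells, at -0.58 ± 0.14 (SE, adjusted p = 0.015). Of 20 other CDK regulators 19 were tested, of which 13 were called higher and 1 (*Fbxw7*, at -0.49, SE 0.14, adjusted p = 0.00532) lower with repeat peptide and DMSO. *Cdc25c*, the phosphatase that activates CDK1, was furthest up with repeat peptide, at 2.26 ± 0.28 (SE, adjusted p = 3.16e-06), and furthest down with ibrutinib in single peptide cells, at -1.19 ± 0.30 (SE, adjusted p = 0.034). None of these 19 was called with ibrutinib in repeat peptide cells in edgeR, where 3 had an unadjusted p below 0.05.

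Targets of p53 and genes of the DNA damage checkpoint were mixed. Of 20 such genes 9 were called higher and 4 lower with repeat peptide and DMSO, beside 22.8% and 24.2% of all tested genes, from *Plk2* at 3.63 ± 0.36 (SE, adjusted p = 1.89e-07) to *Sesn1* at -1.12 ± 0.17 (SE, adjusted p = 2.14e-05). With ibrutinib in repeat peptide cells *Sesn2* was called lower (-0.80, SE 0.18, adjusted p = 0.00982), as was *Zmat3* at -0.68, and *Sesn1* was called higher (0.56, SE 0.16, adjusted p = 0.0483). For *Sesn2* the difference between the ibrutinib effects passed, at -1.07 ± 0.25 (SE, adjusted p = 0.0412). In single peptide cells *Chek1*, the checkpoint kinase of replicating cells, was called lower with ibrutinib (-1.22, SE 0.28, adjusted p = 0.0219), and *Sesn1* and *Btg2* were called higher.

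Genes of T cell quiescence mostly ran against the division genes. Of 12, 9 were called lower and 2 higher with repeat peptide and DMSO, beside 24.2% and 22.8% of all tested genes. They ran from *Klf2*, a factor of resting and circulating T cells, at -2.98 ± 0.25 (SE, adjusted p = 2.5e-08) to *Ccng2* at 0.61 ± 0.12 (SE, adjusted p = 0.0003). With ibrutinib in repeat peptide cells 6 of the 12 were called higher (*Klf2*, *Pik3ip1*, *Tsc22d3*, *Btg1*, *Foxo1* and *Tob1*) and none lower. Of all tested genes 4.01% were called higher there. *Klf2* was furthest, at 1.42 ± 0.23 (SE, adjusted p = 0.00107). Of the same 12, 2 were called higher with ibrutinib in single peptide cells, beside 0.351% of all tested genes. These were *Tsc22d3* at 0.80 ± 0.12 (SE, adjusted p = 0.00235) and *Tob1* at 0.50. The median of the list was 0.44 in repeat and 0.38 in single peptide cells, beside 0.0045 and 0.01 for all genes.

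With ibrutinib in both arms, repeat against single peptide was counted in the same lists. Called higher were 33 of the 40 replication genes (*Orc1* furthest at 3.15), 49 of the 52 mitotic genes (*Kif15* furthest at 2.86), 12 of the 18 RB, E2F and DREAM genes (*E2f7* furthest at 2.84) and 12 of the 19 CDK regulators (*Cdc25c* furthest at 2.95). Called lower was 1 mitotic gene, *Smc4*, at -0.32 ± 0.12 (SE, adjusted p = 0.0413). Of the p53 and checkpoint genes 4 were called higher (*Plk2* furthest at 4.10) and 6 lower (*Sesn1* furthest at -1.17), beside 18.7% and 19.6% of all tested genes, and of the quiescence genes 9 were called lower (*Klf2* furthest at -1.93) and none higher.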

How the data were processed

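Poly(A) RNA of CD8+ T cells was sequenced as paired-end, directional libraries, 18 in all. Per the labels and the study's methods, reads were trimmed with Trim Galore and quantified by the authors with RSEM 1.3.1 and STAR on GRCm38. The deposited tables give each gene's expected count, estimated by the authors with RSEM so that a read is shared between the genes it matches. They also give TPM, which the authors scaled to one total per library after division by effective length.

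The 46 genes and the gene lists were chosen with earlier results of these data known. Expected counts of 27903 protein-coding and lncRNA genes, which hold 98.5% of all counts, were rounded and fitted over all 4 groups with edgeR 4.0.16 (R 4.3.3; TMM, filterByExpr, robust quasi-likelihood F test, Benjamini-Hochberg adjustment over 12255 genes). Group was the only term. Thresholds were an adjusted p of 0.05, a mean normalized count of 50 and an absolute log2 fold change of 0.2. The ibrutinib effects were compared by an interaction contrast. Genes given library by library were those with the largest rise or fall of their role in a comparison, 7 taken by name (*Mki67*, *Top2a*, *Pcna*, *Ccne1*, *Ccne2*, *E2f1* and *Foxm1*), and all D cyclins, partner kinases and inhibitors. Of each other list, the called genes with the largest rise and fall were taken, and further genes named there were added after their values were seen.

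Depth was 23445922 to 51995372 counts per library. No pair of libraries of the same group agreed within sampling noise, and pairs from different groups were not compared in this way. The experiment, read from the genotype entry, was checked as a pairing. The 24 pairs of libraries of an experiment had correlations of their deviations from group means of 0.161 to 0.491 (median 0.327), against a median of -0.079 for 97 other pairs. The fits were repeated with the size factors of DESeq2, without the low count filter, without the minimum mean, with a log2 fold change above 1, an offset for effective length, all gene types, only the compared groups, the experiment as a block, DESeq2 1.42.0, and each library left out. The fit of experiments A to D alone was added after seeing the data. The scripts were tested on simulated data.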

Additional observations from a re-analysis of the deposited data

Results flagged for a closer look

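Over the 188 groups examined, in normalized counts of 45 genes and in the sums, 9 held a library far from the rest of its group, and chance alone gives about 1 in 20. In repeat peptide cells with DMSO, library D was high for *Rrm2* (9667 against 9231 to 9253) and *Tyms* (2509 against 2068 to 2094) and low for *Foxm1* (3463 against 4265 to 4290.0), and library B was high for *Cdt1* (3349.7 against 2723 to 2820.0). In repeat peptide cells with ibrutinib, library E was low for *Foxm1* (1665 against 3029 to 3545). In single peptide cells with ibrutinib, library C was high for *Mcm3* (4301 against 3158 to 3202) and *E2f1* (466 against 396 to 403). In single peptide cells with DMSO, library D was low for *Cdk6* (10102 against 12600.0 to 13080.0) and high for *Cdkn2d* (2237 against 1580.0 to 1742).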

How the results depend on the processing

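With repeat against single peptide, the 42 calls with DMSO became 32 and the 41 with ibrutinib became 36 at a log2 fold change above 1. The other alternatives gave 41 to 43 and 40 to 44, with 44 under the replicate block. Leaving out each library in turn gave 41 to 43 calls with DMSO and 40 to 43 with ibrutinib. With ibrutinib in single peptide cells, the 26 calls became 12 without a filter on low counts, 6 in a fit of only the compared groups, and 6 to 31 with each library left out. DESeq2 gave 32 and the experiment as a replicate block 38. With ibrutinib in repeat peptide cells, the 3 calls became 1 at a log2 fold change above 1, 6 with the replicate block and 1 to 3 with each library left out. The difference between the ibrutinib effects had 0 calls, 0 with each library left out, 15 with the replicate block and 2 in experiments A to D, an alternative chosen after seeing the data. The cause was not tested. Where no share of all tested genes is given for a fit, its count cannot be set against the calls among all genes.

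Of 4635 alternatives for 225 single gene values, 4347 kept their direction and side of the threshold, 179 lost the call, 71 gained it, 38 changed sign where neither value was called, and no called value was reversed. Pairing libraries by experiment leaves E and F, of 1 library each, without weight on the group differences. Counts of *Pcna*, *Ccnb1* and *E2f1* include shared reads. *Ccnd1*, with at most 6 counts in any library, was not tested.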
